A study of Mus musculus with 12 samples.

Results

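The 10 genes described here (Egr1, Egr2, Fos, Fosb, Jun, Junb, Ier2, Ier3, Ccn1 and Dusp1) are immediate early genes, and they were taken as a named list from the 19505 genes with a probe set on the array. The list was chosen with earlier results of these data known. Its counts beside the shares of all probe sets are therefore descriptive only. Each of the 10 was represented by 1 probe set, so no choice among probe sets was needed, and none was removed by a filter. The values are log2 signals from Affymetrix Clariom S arrays hybridised with whole-kidney RNA of 12 mouse samples, 3 in each of 4 groups. One group was wild type with vehicle, and the other 3 were Alport mice that received vehicle, losartan or metformin. All were 16 weeks old at sampling. The Alport mice were hemizygous for a nonsense change of Col4a5 (G5X), a gene of the glomerular basement membrane whose loss gives the progressive kidney disease Alport syndrome. The strain is not given in the sources used here. Losartan, a blocker of the angiotensin II type 1 receptor, was in the drinking water at 125 µg/mL from week 6 to week 11 and at 250 µg/mL from week 12. Metformin, a biguanide used against high blood glucose, was given in the same way at 2.5 and then 5 mg/mL. The labels let the later dose run to week 20, beyond the stated age at death, and call losartan co-administered without naming with what. The groups are named here after the drug in the sample titles.

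Immediate early genes are transcribed within minutes of a stimulus from factors that are already present in the cell, without new protein synthesis. Growth factors, angiotensin II, stretch and injury reach them through MAP kinases, serum response factor with its partners of the ternary complex and MRTF families, and CREB. Egr1 and Egr2 are zinc finger transcription factors. Fos, Fosb, Jun and Junb are subunits of AP-1, a dimeric transcription factor. Ier2 and Ier3 are small response proteins, of which Ier3 acts on cell survival. Ccn1 is a secreted matricellular protein and a known target of the coactivator YAP, and Dusp1 is a phosphatase that inactivates MAP kinases and so limits the response.

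In Alport kidneys given vehicle 8 of the 10 genes rose, led by Egr1 and Egr2, where 8.43% of all probe sets rose. The exceptions were Fosb, which lay at a low signal in every group, and Dusp1, whose mean was lower. With losartan 5 of the 10 fell (Egr1, Egr2, Jun, Junb and Ccn1), where 4.11% of all probe sets fell. With metformin 4 fell (Egr1, Egr2, Ier3 and Ccn1), where 2.27% of all probe sets fell. No gene of the list passed the test between the 2 drugs, where 0.045% of all probe sets were called. This is near that share and is no result about the list.

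The arrays as a whole were alike. The median log2 signal of a sample ran from 5.88 to 6.065, and the Pearson correlation of sample pairs over 22206 probe sets (not independent of each other) was 0.99 to 0.994 inside a group and 0.975 to 0.993 otherwise. Col4a5, the mutated gene, read 5.06 to 5.83 in wild type samples and 4.09 to 4.97 in the 9 Alport samples, and fell by 0.92 ± 0.23 on the log2 scale in Alport vehicle (standard error, limma adjusted p = 0.0116). Nothing in the labels says that samples came from separate animals. The p-values therefore rest on a sample-to-sample spread that could be technical. In whole-kidney RNA, a change in the number of cells of a type and a change in RNA per cell cannot be told apart. Markers of some cell types moved with the groups, and those of others moved less. The summed signal of 7 macrophage markers (log2 of the sum) ran from 10.85 to 10.87 in wild type, 12.76 to 14.61 in Alport vehicle, 11.61 to 11.93 with losartan and 11.95 to 13.27 with metformin. For 6 fibroblast markers it was 11.57 to 11.87, 15.37 to 15.79, 13.45 to 14.12 and 13.54 to 14.25 in the same order. For 5 markers of injured tubules it was 14.65 to 15.04, 17.62 to 18.18, 16.03 to 17.10 and 16.53 to 18.35. For 5 smooth muscle markers it was 10.71 to 11.60, 13.99 to 14.78, 12.06 to 12.65 and 12.1 to 13. Each sum is weighted to its brightest genes, such as Dcn for fibroblasts and Acta2 for smooth muscle. In wild type Clu alone read 14.98, 14.63 and 15.02, close to the injured tubule sum. Dimmer markers of that list moved more in Alport vehicle, with Havcr1 at 7.62 ± 0.56 (limma adjusted p = 4.59e-07) and Lcn2 at 9.05 ± 0.68 (limma adjusted p = 5.21e-07). The sum of 5 endothelial markers moved less, at 13.71 to 13.81, 13.84 to 14.23, 13.81 to 14.02 and 13.29 to 13.77. Single endothelial genes went opposite ways in Alport vehicle, where Emcn rose (0.73 ± 0.20, limma adjusted p = 0.0191) and Kdr fell (-0.69 ± 0.19, limma adjusted p = 0.0221). With losartan Kdr rose (0.72 ± 0.19, limma adjusted p = 0.0329), and with metformin Pecam1 fell (-0.71 ± 0.17, limma adjusted p = 0.0281). In Alport vehicle 6 of 7 macrophage, 6 of 6 fibroblast, 5 of 5 injured tubule and 4 of 5 smooth muscle markers rose, while 6 of 7 proximal tubule markers fell. Also rising were 2 of 3 urothelium, 2 of 4 T cell, 1 of 3 collecting duct, 1 of 4 podocyte and 1 of 3 neutrophil markers. The 1 measured erythroid marker fell. Of the markers of thick ascending limb, B cells, adipocytes and adrenal cortex 0 were called. Of all probe sets 8.43% rose and 7.71% fell. The part of these cells in the values of the 10 genes was not tested.

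Beyond the list rule, the 10 genes share compact gene structures. Their genomic span had a median of 3101 bases, from 1199 for Ier3 to 7720 for Egr2, against a median of 18180 bases over 19107 measured protein-coding genes. All 10 were shorter than that median. Junb and Ier2 both lie on chromosome 8, and Ier3 and Dusp1 both on chromosome 17.

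Promoter sequences of RefSeq (build GRCm38.p6) ran from 250 bases before to 50 after a listed transcription start. They were obtained for 8 of the 10 genes. Egr1 was left out of the search, and no entry was found for Ier2. The sequences of 4 of the 8 are shown because the genes differed in how they moved. Of the 8, Egr2 rose most in Alport vehicle and fell most with losartan, and Ccn1 fell most with metformin. Fos rose but passed no test of a drug against vehicle, and Dusp1 did not rise. Capitals mark matches to the motifs searched on both strands. These were the CArG box of serum response factor, the cAMP response element TGACGTCA and its shorter core TGACG (which lies within the full element, so the matches overlap), the AP-1 site TGANTCA and the Egr site GCGNGGGCG.

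Egr2: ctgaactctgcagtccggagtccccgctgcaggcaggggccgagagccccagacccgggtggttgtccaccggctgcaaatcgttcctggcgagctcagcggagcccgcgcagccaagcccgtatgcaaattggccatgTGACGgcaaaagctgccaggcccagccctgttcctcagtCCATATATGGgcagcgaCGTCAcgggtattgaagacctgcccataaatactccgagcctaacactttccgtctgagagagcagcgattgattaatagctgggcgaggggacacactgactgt
Fos: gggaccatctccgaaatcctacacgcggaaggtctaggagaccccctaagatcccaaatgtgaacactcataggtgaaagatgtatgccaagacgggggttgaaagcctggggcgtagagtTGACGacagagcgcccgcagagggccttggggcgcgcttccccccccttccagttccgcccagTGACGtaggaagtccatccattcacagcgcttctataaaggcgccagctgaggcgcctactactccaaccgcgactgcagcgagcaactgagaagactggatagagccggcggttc
Ccn1: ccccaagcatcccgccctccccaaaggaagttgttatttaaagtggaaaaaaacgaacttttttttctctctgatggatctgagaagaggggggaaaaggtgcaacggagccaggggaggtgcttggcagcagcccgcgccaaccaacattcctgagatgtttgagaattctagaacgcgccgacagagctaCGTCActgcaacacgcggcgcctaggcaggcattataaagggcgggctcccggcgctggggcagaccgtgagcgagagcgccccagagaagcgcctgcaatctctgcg
Dusp1: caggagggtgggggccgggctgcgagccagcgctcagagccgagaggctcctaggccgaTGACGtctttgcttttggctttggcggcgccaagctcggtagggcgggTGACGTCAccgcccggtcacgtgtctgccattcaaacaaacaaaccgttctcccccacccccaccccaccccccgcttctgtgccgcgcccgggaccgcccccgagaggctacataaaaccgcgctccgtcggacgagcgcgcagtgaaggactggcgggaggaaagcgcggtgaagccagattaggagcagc

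The Egr2 window is chr10:67537619-67537918 on the plus strand, for 1 of 5 listed starts, and the Fos window is chr12:85473640-85473939 on the plus strand. The windows of Ccn1 and Dusp1 are chr3:145649936-145650235 and chr17:26508423-26508722, both on the minus strand. Egr2 held a CArG box at bases -72 to -63 from the start, and 1.63% of all 32841 promoter windows held one. No CArG box was found in the windows of the other 7 genes. Bases further from the start than these windows reach were not searched, and neither was Egr1. A missing match therefore does not show that a gene lacks the site. The full cAMP response element was found in Dusp1 alone, at -143 to -136, against 1.79% of all windows. The core TGACG was found in 6 of the 8 genes (Egr2, Fos, Fosb, Junb, Ccn1 and Dusp1), against 20.8% of all windows. A gene counted if the window of any of its listed starts matched, while the shares are of single windows. Of the 5 Egr2 windows some lacked the core. The Egr site was in Fosb alone (5.55% of windows), and the AP-1 site in 0 of 8 (7.81%). These matches describe letters only, and do not show that a factor was bound.

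**Figure D1:**
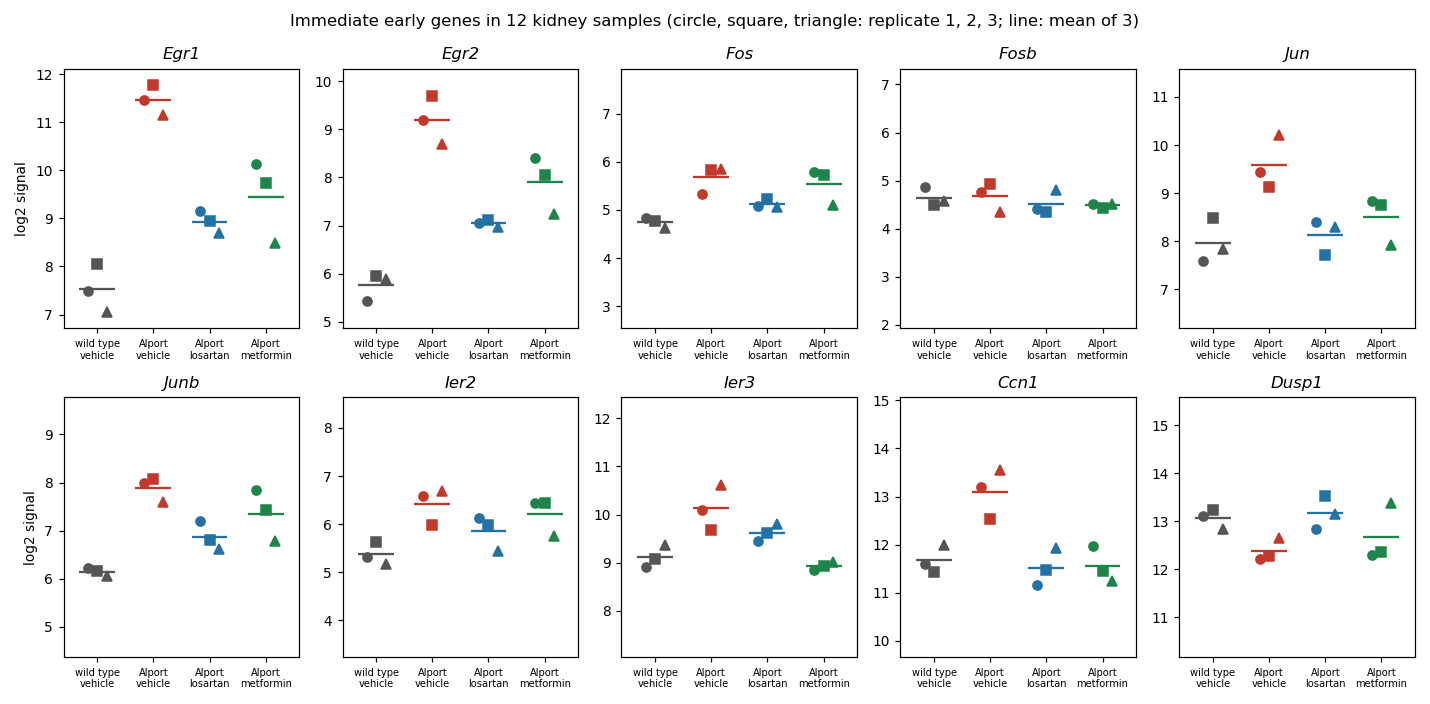
Log2 signal (vertical axis, the same span in every panel) of each of the 10 genes in the 12 samples by group (horizontal axis). Symbols are single samples and lines the mean of 3. Egr1 and Egr2 separate Alport vehicle from every other group, Fosb lies between 4.34 and 4.92 throughout, and Dusp1 is lowest in Alport vehicle.

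The comparison of vehicle-treated Alport with wild type kidneys asks how these genes differed between the genotypes at 16 weeks. Of the 10 genes 8 rose and 0 fell, where 8.43% of all 22206 probe sets rose and 7.71% fell (16.1% in either direction, Benjamini-Hochberg adjusted p under 0.05 over all probe sets). At an unadjusted p under 0.05 there were 9, beside 27.6% of all probe sets. The median log2 change of the 10 was 1.24, beside -0.03 over all probe sets. Centring the samples on their medians moves that median over all probe sets to -0.17 and the split of all calls from 1871 up and 1711 down to 1451 up and 2842 down, while the same 8 genes stay called.

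Egr1 read 7.49, 8.06 and 7.06 in the wild type samples and 11.46, 11.77 and 11.15 in Alport vehicle. The lowest Alport sample was thus far above the highest wild type sample. Egr1 rose 15.2-fold (log2 change 3.92 ± 0.34, standard error, n = 3 per group, limma adjusted p = 1.87e-06).

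Egr2 read 5.44, 5.95 and 5.88 in wild type and 9.20, 9.69 and 8.70 in Alport vehicle. It rose 10.9-fold (3.44 ± 0.28, limma adjusted p = 1.22e-06). In 2 wild type samples it lay below the median signal of that sample, so the size of its fold is uncertain.

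Among the AP-1 subunits, Junb read 6.22, 6.16 and 6.06 in wild type and 7.99, 8.08 and 7.60 in Alport vehicle, and rose 3.35-fold (1.74 ± 0.24, limma adjusted p = 0.000109). Jun read 7.58, 8.48 and 7.83 against 9.44, 9.13 and 10.20, and rose 3.09-fold (1.63 ± 0.31, limma adjusted p = 0.00153). The groups did not overlap for either gene, though the Jun samples were more spread. Fos, the best known member of the class, read only 4.83, 4.78 and 4.62 in wild type and 5.34, 5.84 and 5.86 in Alport vehicle. It rose 1.91-fold (0.94 ± 0.20, limma adjusted p = 0.00391), but in all 12 samples it lay below the median signal of the sample, which makes its fold uncertain. Fosb read 4.86, 4.5 and 4.57 against 4.76, 4.92 and 4.35, also below the median of every sample. Its log2 change was 0.03 (95% interval -0.37 to 0.43), and its groups overlapped.

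Of the response proteins, Ccn1 read 11.60, 11.44 and 11.99 in wild type and 13.20, 12.53 and 13.56 in Alport vehicle, a 2.68-fold rise (1.42 ± 0.27, limma adjusted p = 0.00153). Ier2 read 5.31, 5.63 and 5.17 against 6.59, 5.98 and 6.70 and rose 2.08-fold (1.05 ± 0.25, limma adjusted p = 0.00701). It lay below the median signal of the sample in 6 of the 12 samples, all 3 wild type samples among them, so its fold is uncertain too. Ier3 read 8.90, 9.08 and 9.37 against 10.09, 9.67 and 10.62 and rose 2.01-fold (1.01 ± 0.22, limma adjusted p = 0.00368). For all 3 genes Alport vehicle sample 2 was the lowest of its group, and still above every wild type sample.

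Dusp1 went the other way. It was among the brighter signals of the list, at 13.12, 13.23 and 12.84 in wild type and 12.22, 12.28 and 12.65 in Alport vehicle, with no overlap. The difference of -0.68 ± 0.26 (95% interval -1.23 to -0.13) did not pass the test over all probe sets (limma adjusted p = 0.0915). It passed after centring the samples on their medians (-0.82, adjusted p = 0.0368) and in a fit of only these groups (adjusted p = 0.0367). Groups without overlap occurred in 8 of the 10 genes on the higher side and in 1 on the lower, and in 14.2% and 15.5% of all probe sets.

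**Figure D2:**
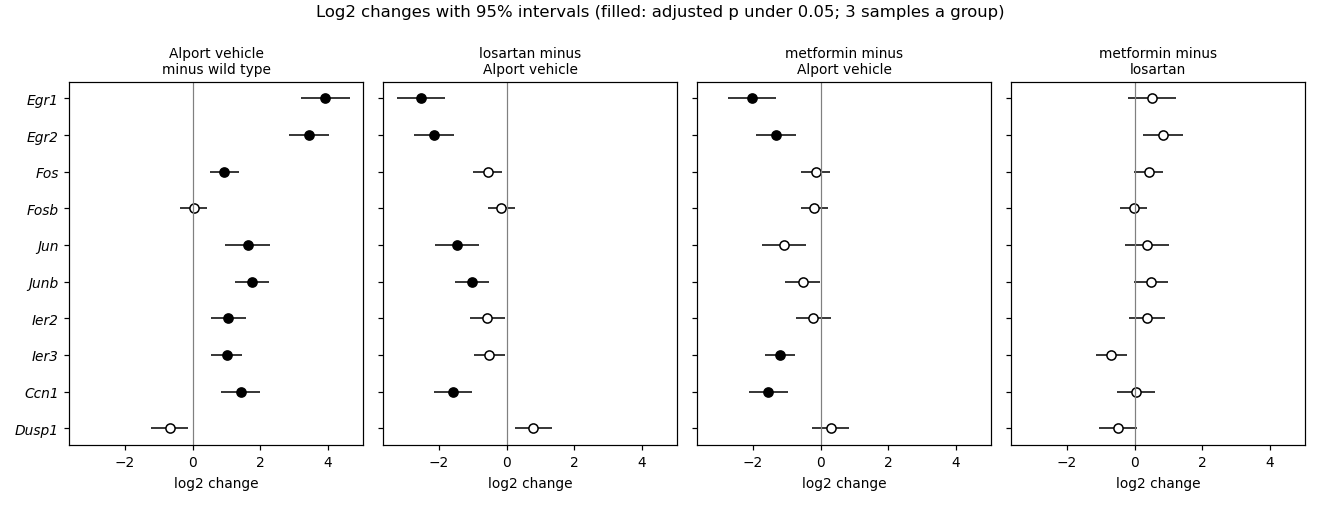
Log2 change (horizontal axis) of each gene in 4 comparisons with its 95% interval, 3 samples per group, filled where the adjusted p was under 0.05. The rises of Alport vehicle run from 0.94 (Fos) to 3.92 (Egr1), and the intervals of Fosb include 0 in all 4 comparisons.

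The losartan comparison asks which of these genes differed between Alport kidneys of the losartan group and of the vehicle group. The 2 drug comparisons and the comparison with wild type share the Alport vehicle samples, so a high vehicle sample shifts all of them. With losartan 5 of the 10 genes fell and 0 rose, where 4.11% of all probe sets fell and 3.79% rose (7.9% in either direction). At an unadjusted p under 0.05 there were 9, beside 20.4% of all probe sets. Groups did not overlap in 6 genes on the lower side and in Dusp1 on the higher, and in 11.3% and 11.8% of all probe sets. The median log2 change of the 10 was -0.79, beside 0.01 over all probe sets. Of all calls 842 were up and 913 down, or 1238 and 724 after centring.

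Egr1 read 9.16, 8.95 and 8.69 with losartan, all below the lowest vehicle sample at 11.15, and fell 5.76-fold (-2.53 ± 0.34, limma adjusted p = 0.000541). Egr2 read 7.05, 7.12 and 6.98, the tightest group of the gene, and fell 4.43-fold (-2.15 ± 0.28, limma adjusted p = 0.00053). Ccn1 read 11.16, 11.48 and 11.92 and fell 2.98-fold (-1.58 ± 0.27, limma adjusted p = 0.00253). These 3 genes kept their call with each of the 6 samples left out in turn.

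Jun read 8.39, 7.72 and 8.29 with losartan and fell 2.74-fold (-1.46 ± 0.31, limma adjusted p = 0.00895), a call lost without losartan sample 2 (adjusted p = 0.0565). Junb read 7.21, 6.80 and 6.62 and fell 2.02-fold (-1.01 ± 0.24, limma adjusted p = 0.0165). That call was lost without Alport vehicle sample 1 (adjusted p = 0.0698), losartan sample 2 (0.0701) or losartan sample 3 (0.0757). Without losartan sample 2 the count of falling genes was 3.

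The other 5 genes did not pass. Fos read 5.09, 5.22 and 5.06, below all vehicle samples, at a log2 change of -0.56 ± 0.20 (limma adjusted p = 0.111). Ier2 read 6.12, 5.98 and 5.45 and was at -0.57 ± 0.25 (limma adjusted p = 0.191). Ier3 read 9.44, 9.61 and 9.80 and was at -0.51 ± 0.22 (limma adjusted p = 0.182, and -0.74 with adjusted p = 0.0371 without Alport vehicle sample 2). In both Ier genes the groups overlapped. Fosb, at 4.4, 4.34 and 4.81, was at -0.16 (95% interval -0.56 to 0.24). Dusp1 read 12.83, 13.53 and 13.15, above all vehicle samples, at 0.79 ± 0.26 (95% interval 0.24 to 1.34). It missed the test at a limma adjusted p of 0.0785, and passed after centring (0.88, adjusted p = 0.0456).

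The metformin comparison asks the same of the metformin group. With metformin 4 of the 10 genes fell and 0 rose, where 2.27% of all probe sets fell and 2.67% rose (4.94% in either direction). At an unadjusted p under 0.05 there were 6, beside 18.6% of all probe sets. Groups did not overlap in 5 genes, all lower with metformin, beside 9.88% of all probe sets on that side and 10.6% on the other. The median log2 change of the 10 was -0.81, beside -0.01 over all probe sets. Of all calls 592 were up and 504 down, or 827 and 381 after centring.

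Egr1 read 10.13, 9.73 and 8.48 with metformin and fell 4.04-fold (-2.01 ± 0.34, limma adjusted p = 0.00452). Ccn1 read 11.97, 11.46 and 11.25 and fell 2.90-fold (-1.54 ± 0.27, limma adjusted p = 0.00542). Ier3 read 8.85, 8.93 and 9.02, a narrow range by the lower wild type values, and fell 2.29-fold (-1.19 ± 0.22, limma adjusted p = 0.00599). Egr2 read 8.41, 8.05 and 7.23 and fell 2.46-fold (-1.30 ± 0.28, limma adjusted p = 0.0143). The Egr2 call was lost without metformin sample 3 (-0.97, adjusted p = 0.0761), without Alport vehicle sample 1 (adjusted p = 0.0567) and in a fit of only these groups (adjusted p = 0.0625).

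Jun read 8.84, 8.75 and 7.92, below all vehicle samples, at -1.09 ± 0.31. It narrowly missed the test (limma adjusted p = 0.0539) and passed without the dimmest 33.3% of probe sets (0.0438), after quantile normalization (0.0443), with a trended robust variance prior (0.0411) and without Alport vehicle sample 2 (0.0283). Junb read 7.85, 7.44 and 6.78 and was at -0.53 ± 0.24 (limma adjusted p = 0.238), with 1 sample inside the vehicle range. Fos at 5.79, 5.73 and 5.10 and Ier2 at 6.45, 6.45 and 5.75 overlapped the vehicle samples, with changes of -0.14 (95% interval -0.57 to 0.29) and -0.21 (95% interval -0.73 to 0.31). Fosb, at 4.52, 4.42 and 4.52, was at -0.19 (95% interval -0.59 to 0.21). Dusp1 read 12.30, 12.37 and 13.37 and was at 0.30 (95% interval -0.25 to 0.85).

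The metformin samples were not alike. Sample 3 was the lowest of its group in 7 of the 10 genes and the highest in Ier3 and Dusp1. Sample 1 was the highest in 8, counting ties with sample 3 in Fosb (4.52) and with sample 2 in Ier2 (6.45). In the other 3 groups no sample was highest in more than 6 genes or lowest in more than 5. Without its ties, metformin sample 1 does not exceed the other groups in this count. The median deviation of the 10 genes from the group mean was -0.45 in metformin sample 3, 0.29 in sample 1 and 0.12 in sample 2, while in the other groups it lay between -0.11 and 0.22. In metformin samples 1, 2 and 3 the injured tubule markers summed to 18.35, 17.81 and 16.53. Clu alone read 18.05, 17.48 and 16.29 there. The macrophage markers summed to 13.27, 12.99 and 11.95. The part of these cells in the lower values of sample 3 was not tested. Without metformin sample 3 the fall of Egr1 was -1.53 (adjusted p = 0.0158), that of Ier3 -1.24 (0.0257) and that of Ccn1 -1.38 (0.0361), and 3 genes stayed called.

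**Figure D3:**
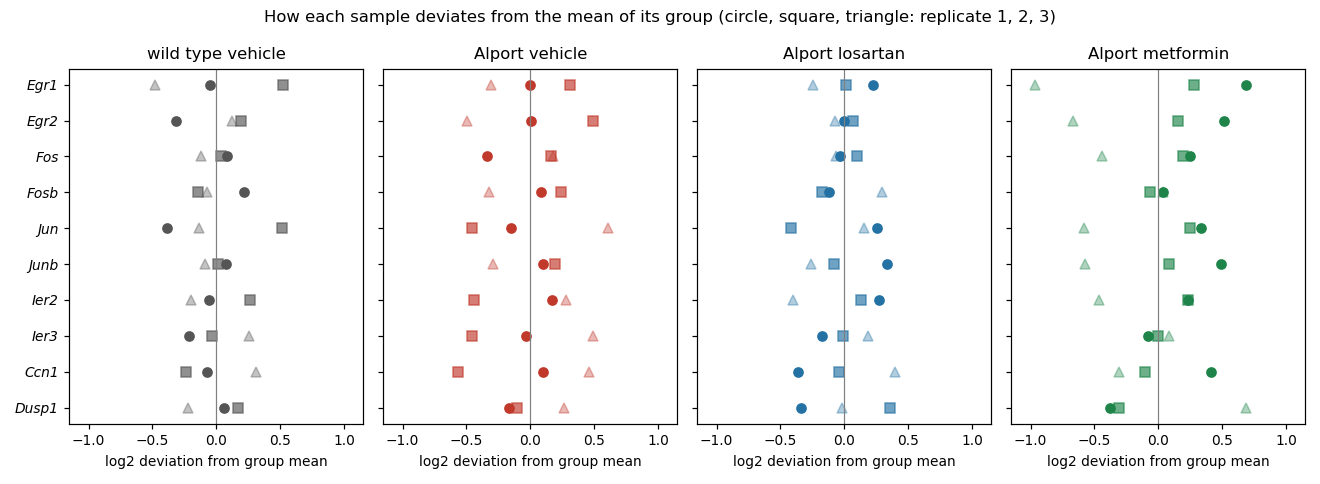
Deviation of each sample from the mean of its own group (horizontal axis, log2) for the 10 genes, with 1 panel per group and 1 symbol per replicate. In the metformin panel the triangle of sample 3 lies left of 0 for 7 genes, and its median deviation over the 10 is -0.45.

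Set directly against each other, metformin and losartan differed in 0 of the 10 genes by the adjusted test of limma, where 0.045% of all probe sets were called (0.018% higher and 0.027% lower with metformin). At an unadjusted p under 0.05 there were 2, Egr2 and Ier3, beside 8.37% of all probe sets. Egr2 was higher with metformin by 0.85 (95% interval 0.26 to 1.43, limma adjusted p = 0.411). Ier3 was lower with metformin by -0.68 (95% interval -1.14 to -0.23, limma adjusted p = 0.39). In both genes the 3 samples of one drug lay apart from those of the other, as in 5.77% of all probe sets with metformin higher and 7.74% with metformin lower. For Egr1 the difference was 0.51 with an interval from -0.20 to 1.23, and for Ccn1 0.04 with an interval from -0.53 to 0.61. With 3 samples a group, true differences anywhere inside these intervals remain possible.

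Against wild type, losartan-treated kidneys kept 1 gene of the 10 above the threshold, where 0.401% of all probe sets rose and 0.149% fell (0.549% in either direction). At an unadjusted p under 0.05 there were 4, beside 10.7% of all probe sets. Egr2 was 2.45-fold higher (1.29 ± 0.28, limma adjusted p = 0.0491). That call stood close to the threshold, and leaving out any 1 of the 6 samples ended it (adjusted p from 0.101 to 0.165). Egr1 was 2.63-fold higher with no overlap (1.40 ± 0.34, limma adjusted p = 0.0924), and passed in a fit of only these groups (adjusted p = 0.0139). Groups did not overlap in 5 genes, all higher with losartan, beside 8.4% of all probe sets on that side and 8.32% on the other. Ccn1 (-0.16, 95% interval -0.73 to 0.41) and Jun (0.17) overlapped the wild type samples.

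With metformin 4 genes were above wild type, where 2.7% of all probe sets rose and 1.48% fell (4.18% in either direction), or 599 up and 329 down of all calls and 513 and 486 after centring. They were Egr2 at 4.41-fold (2.14 ± 0.28, limma adjusted p = 0.00043), Egr1 at 3.76-fold (1.91 ± 0.34, limma adjusted p = 0.00468), Junb at 2.31-fold (1.21 ± 0.24, limma adjusted p = 0.00919) and Fos at 1.74-fold (0.80 ± 0.20, limma adjusted p = 0.035). The call of Fos was lost without any 1 of the 3 wild type samples, without metformin sample 1 or 2, and in a fit of only these groups (adjusted p = 0.0529 there and 0.0694 to 0.169 otherwise). Without metformin sample 1, Junb was at an adjusted p of 0.0569 and 2 genes stayed called. Ier2 was 1.80-fold higher with no overlap (0.85 ± 0.25, limma adjusted p = 0.0649), and passed without metformin sample 3 (1.08, adjusted p = 0.0196). At an unadjusted p under 0.05 there were 5 genes, beside 18% of all probe sets, and the same number had no overlap, all higher (10.6% of all probe sets on that side and 12.2% on the other). Ier3 and Ccn1 were at -0.18 and -0.12 against wild type, with intervals from -0.64 to 0.27 and from -0.69 to 0.45.

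The order of group means was the same for 6 genes. Egr1, Egr2, Fos, Jun, Junb and Ier2 ran from Alport vehicle through metformin and losartan to wild type. The share of all probe sets with this order was not counted. It is not particular to the list, since the markers Havcr1 and Col1a1 had it too, though Dcn did not. Alport vehicle and metformin were separated by the adjusted test for Egr1 and Egr2 among these 6. Metformin and losartan as neighbours in that order were not separated by the adjusted test for any of these genes, and losartan and wild type were separated only for Egr2. Ier3 was lowest with metformin, Ccn1 lowest with losartan, and Dusp1 highest with losartan and lowest in Alport vehicle.

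Related genes of the pathway moved in part. Their counts are to be read against all probe sets, of which 8.43% rose and 7.71% fell in Alport vehicle, 3.79% rose and 4.11% fell with losartan, and 2.67% rose and 2.27% fell with metformin. Of 11 other AP-1 family genes 4 rose in Alport vehicle, led by Fosl2 (1.83 ± 0.23, limma adjusted p = 6.15e-05) and the stress-induced Atf3 (1.82 ± 0.29, adjusted p = 0.000411). With losartan 3 of the 11 fell, led by Atf3 (-1.31 ± 0.29, adjusted p = 0.0126) and Fosl2 (-1.01 ± 0.23, adjusted p = 0.0151). With metformin 1 fell, Jund (-0.83 ± 0.20, adjusted p = 0.0282). The median log2 changes of these 11 were 0.28, -0.25 and -0.18 in the 3 comparisons.

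Of 18 other immediate early genes 7 rose in Alport vehicle, with the growth regulator Myc at 2.61 ± 0.25 (limma adjusted p = 5.23e-06) and Klf6 at 2.22 ± 0.33 (adjusted p = 0.000201). With losartan 6 fell, including Myc (-1.48 ± 0.25, adjusted p = 0.00253) and Klf6 (-1.44 ± 0.33, adjusted p = 0.0141). With metformin 2 fell, the nuclear receptor Nr4a3 (-1.21 ± 0.19, adjusted p = 0.0029) and Klf2 (-0.59 ± 0.16, adjusted p = 0.0476), and 1 rose, Csrnp1 (0.81 ± 0.22, adjusted p = 0.0432). The medians of the 18 were 0.59, -0.30 and -0.33. Against wild type, Myc stayed 2.29 ± 0.25 higher with metformin (adjusted p = 8.86e-05). Myc with metformin read 10.76, 10.25 and 9.99, inside the vehicle range of 10.17 to 11.19 in 2 of 3 samples.

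Dusp1 was set beside other feedback genes of the MAP kinase pathway. Of 16 other phosphatases, Sprouty-related inhibitors and Egr co-repressors, 4 rose in Alport vehicle, led by Dusp8 (1.34 ± 0.25, limma adjusted p = 0.00132) and Dusp10 (0.95 ± 0.31, adjusted p = 0.0439), and 2 fell, Dusp4 (-0.85 ± 0.20, adjusted p = 0.00803) and Spred2 (-0.69 ± 0.17, adjusted p = 0.0102). With losartan Dusp8 fell (-1.13 ± 0.25, adjusted p = 0.0117), and with metformin Spred1 (-0.88 ± 0.17, adjusted p = 0.00903) and Dusp6 (-0.67 ± 0.18, adjusted p = 0.0394) fell. The 2 falls in Alport vehicle and the 1 with losartan are near the shares of all probe sets (7.71% and 4.11%) and are no result about this list. The medians of the 16 were 0.33, -0.32 and -0.31.

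Ccn1 belongs to a family whose relative Ccn2, a profibrotic matricellular protein, moved with it. Of 15 other CCN genes, YAP targets and factors of that pathway 4 rose in Alport vehicle, led by Ankrd1 (2.99 ± 0.21, limma adjusted p = 3.2e-07) and Ccn2 (1.61 ± 0.22, adjusted p = 0.000113). Ccn2 fell with losartan (-1.41 ± 0.22, adjusted p = 0.00156) and metformin (-1.62 ± 0.22, adjusted p = 0.00143), as did Ankrd1 (-1.42 ± 0.21, adjusted p = 0.00118, and -1.47 ± 0.21, adjusted p = 0.00206). In total 3 of the 15 fell with losartan and 2 with metformin, with medians of 0.42, -0.25 and -0.27 in the 3 comparisons.

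Among 14 measured upstream kinases and factors 1 rose in Alport vehicle, the ternary complex factor Elk3 (0.84 ± 0.24, limma adjusted p = 0.0225), and 1 fell, the kinase Map2k1 (-0.53 ± 0.17, adjusted p = 0.0423). These counts are near the shares of all probe sets (8.43% up and 7.71% down) and are no result about this list. With either drug 0 of the 14 passed the adjusted test of limma, and at an unadjusted p under 0.05 there were 2 with losartan and 4 with metformin (20.4% and 18.6% of all probe sets). Of 6 measured heat shock genes, another stress-induced class, Hspb1 rose (2.44 ± 0.38, adjusted p = 0.00031) and Hsp90aa1 fell (-0.72 ± 0.21, adjusted p = 0.0252) in Alport vehicle, and 0 passed the adjusted test of limma with either drug. Unadjusted, 3 were under 0.05 with losartan and 4 with metformin, beside 20.4% and 18.6% of all probe sets. With losartan Hspb1 was lower and Hsph1 and Hsp90aa1 were higher. With metformin Hspa1a, Hspa1b, Hspb1 and Dnajb1 were all lower. With only 6 genes, 1 rise and 1 fall in Alport vehicle cannot be told from the shares of all probe sets.

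**Figure D4:**
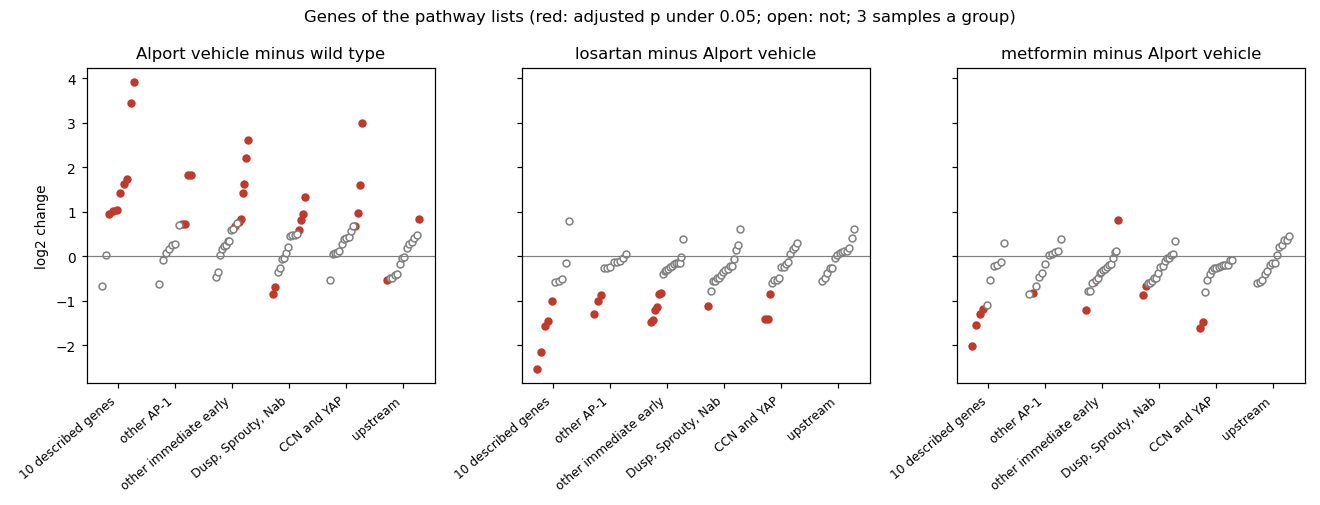
Log2 change (vertical axis) of each gene of the 10 described here and of 5 lists of related genes in 3 comparisons, 3 samples per group, red where the adjusted p was under 0.05. Egr1 and Egr2 at 3.92 and 3.44 are the highest points of the first panel, followed by Ankrd1 at 2.99.

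The genes closest in pattern to a member were found by the root mean square difference of log2 values over the 12 samples, after each gene was centred on its own mean. Egr1 and Egr2 were each other's nearest within the list, at a difference of 0.37. Outside it, Egr1 was nearest to Fn1, Mmp14 and Mki67 (0.37, 0.39 and 0.41), and Egr2 to Mki67, Ccnb2 and Sparc (0.31, 0.35 and 0.38). Junb was nearest to H2ax, Pea15a and B2m (0.16, 0.21 and 0.21), and Jun to Itga9 and the pair 9930111J21Rik1 and 9930111J21Rik2 (0.25, 0.23 and 0.26). Ccn1 was nearest to Elf4, Trim16 and Scrn1 (0.34, 0.34 and 0.35), and Ier3 to Cnn1, Mtss2 and Thsd7a (0.19, 0.22 and 0.23). Fos was nearest to Trib1, Slc12a4 and Atp8b1 (0.15, 0.16 and 0.17), and Ier2 to Gpr153, Tgif1 and Rftn1 (0.17, 0.18 and 0.19). The standard deviation over the 12 samples was 1.54 for Egr1 and 1.36 for Egr2, against 0.44 for Fos and 0.51 for Ier2, and the differences are to be read against that range.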

How the data were processed

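Total RNA of whole mouse kidney was hybridised to Affymetrix Clariom S arrays (per the labels' protocols). In the deposited table there is 1 log2 signal for each of 22206 probe sets and 12 samples. No source states the scale, and log2 is inferred from a range of 2.3 to 19.88. Per the submitters' processing notes, Transcriptome Analysis Console 4.0 was used. The background correction, normalization and probe summary that the authors chose are not stated in those sources.

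Names came from the platform annotation, with symbols updated by Entrez identifier in a RefSeq table of assembly GRCm38.p6 (19572 with 1 symbol, 0 with several, 2634 with none). For genes with several probe sets the one with the highest mean was used. With limma 3.58.1 in R 4.3.3, lmFit and eBayes were run on the 12 samples with 1 mean per group, leaving 8 residual degrees of freedom. All tests are two-sided, with Benjamini-Hochberg adjustment over every probe set of a comparison, and a call needs an adjusted p under 0.05. Errors are standard errors of the model, and intervals are 95% intervals without adjustment. The number of arrays limits the precision, with a median standard error of 0.20.

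The 10 genes and the lists of related genes were chosen with earlier results of these data known. All 10 are named in each comparison. From each list of related genes up to 2 called genes per direction and comparison are named, with the largest changes, and each gene that rose in Alport vehicle is given its 3 nearest genes. A few further values of named genes, such as the single samples of Myc, were chosen after they were seen. The alternatives were a fit of only the groups compared, a trended robust prior, dropping the dimmest 33.3% of probe sets, median centring, quantile normalization, the replicate number as a block, and each sample left out in turn. No gene of the list had another probe set to try. The procedure was tested on simulated data.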

Additional observations from a re-analysis of the deposited data

How the results depend on the processing

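Of 72 counts of the 10 genes under an alternative, 60 were within 1.5 times the count reported. For losartan against wild type the 1 call became 0 after centring, 0 after quantile normalization, 2 with the replicate block, 2 when the other groups were left out of the fit, and 0 with any sample left out. Leaving out 1 sample gave 3 to 6 calls for losartan against vehicle and 2 to 5 for metformin against wild type. The replicate block changed no other count. Numbers did not pair the samples: same-numbered samples correlated at -0.14 to 0.08 in their deviations, and 1 of 12 samples correlated best with its own number. Of 714 log2 changes of single genes 664 kept their direction and side of the threshold, 22 lost a call, 11 gained one and 17 turned sign, all of them uncalled. Fosb in Alport vehicle turned to -0.10 after centring and -0.01 after quantile normalization, and ran from -0.09 to 0.20 with a sample left out. Other signs turned only with a sample left out. For metformin against vehicle the ranges were -0.31 to 0.08 (Fos), -0.43 to 0.03 (Ier2) and -0.05 to 0.49 (Dusp1). For metformin against losartan they were -0.12 to 0.12 (Fosb) and -0.17 to 0.24 (Ccn1). For losartan against wild type they were -0.02 to 0.43 (Jun), -0.36 to 0.02 (Ccn1) and -0.07 to 0.28 (Dusp1), and for metformin against wild type -0.32 to 0.04 (Ccn1). Over all probe sets a fit of only the groups compared called 410 in place of 1096 for metformin against vehicle, 3 in place of 10 for metformin against losartan and 285 in place of 122 for losartan against wild type. These fits hold fewer samples. For the other changes the cause was not tested. Signals below the median of every sample, as for Fos and Fosb, limit what a change can show. Another probe set of a gene could not be tried, since each of the 10 had 1.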
